A study of Mus musculus with 6 samples.

Results

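The genes described here encode the motors that move cargo along microtubules: the kinesin heavy chains (Kif and Kifc genes), the kinesin light chains (Klc), the chains of cytoplasmic dynein (Dync and Dynl) and the numbered subunits of dynactin (Dctn). They were chosen by gene symbol alone, and 67 of the 24946 named genes in the deposited tables carried such a symbol. Of these 67, 56 had 3 or more of the 6 libraries at a value of 10 or above and were tested. The question was how motor transcripts bound to tagged ribosomes of lateral septum neurotensin neurons compare with the transcripts of the whole dissected septum.

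IP was the RNA that co-purified with an EGFP-tagged ribosomal protein, in 3 libraries, and it was set against Input, the RNA kept from the same tissue before the purification, in 3 libraries. All were adult mice of both sexes, Neurotensin-Cre (Nts-Cre) on the C57Bl6J strain, and all had received AAV5-Introvert-NBL10 in the lateral septum, a virus whose tagged ribosomal protein L10a depends on Cre, so Input came from injected Cre mice as well. Tissue was taken 3 or 4 weeks after injection and pooled from 4 to 6 mice for each of 3 replicates, and each pool gave 1 IP and 1 Input library. The tag marks the cells that were infected and carried Cre, not every neurotensin neuron. The values are read counts that the authors divided by DESeq2 size factors. They summed to 22781827 to 24958423 in the IP libraries and to 16828024 to 17129150 in the Input libraries. By the commonest step between low values this is roughly 9900000 to 11010000 reads in IP and 9320000 to 9810000 in Input. That is a rough estimate, since only 15.9% to 31.2% of low values were whole multiples of the step. Pool 1, 2 or 3 below means both libraries of that replicate.

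Kinesins are motors that, for the most part, walk toward the plus ends of microtubules, which in an axon point away from the cell body. Cytoplasmic dynein walks toward the minus ends and needs dynactin and an adaptor to travel far. A neuron depends on both for moving vesicles, mitochondria and signalling endosomes along its processes, while other kinesins build the mitotic spindle or serve the cilium.

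In IP, GABAergic markers were higher and astrocyte, oligodendrocyte and microglial markers lower, while the count for pan-neuronal markers moved with the scaling. Of 10 pan-neuronal markers, 8 were higher and 1 was lower in IP as deposited, and 3 were higher and 3 lower with libraries scaled to their totals. All 3 GABAergic markers were higher under both scalings. All 7 astrocyte markers and all 7 oligodendrocyte markers were lower, and the summed value of the oligodendrocyte markers was 14045 to 22321 in IP and 102063 to 146423 in Input. The astrocyte sum was 8663 to 13176 in IP and 37618 to 44381 in Input, and no marker of either list was at 0 in all IP libraries. All 6 microglial and all 4 glutamatergic markers were also lower. Of 3 oligodendrocyte precursor markers, 1 was lower and 0 were higher, with Cspg4 (0.59) and C1ql1 (-0.36) not called. Of 5 endothelial and mural markers, 2 were lower and 0 were higher. In such bulk samples, fewer cells of a type and less RNA per cell cannot be told apart, and the part of other cells in the results below was not tested.

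As a family, the motors were split. At an adjusted p under 0.05 in limma on log2(value + 1), 17 of the 56 tested members were higher in IP (30.4%) and 20 were lower (35.7%), with 19 not called, and over all 14859 genes tested 31.4% were higher and 32.2% lower, 63.7% in either direction. The members' shares were thus near those of all genes, and the family as a whole did not stand apart. Over 2-fold, 7 members were enriched in IP (12.6% of all genes were) and 13 were depleted (17.2% of all genes). Without Input replicate 3 the depleted count was 8, and 2256 of all 14859 genes were depleted. Every IP library lay above every Input library for 18 members (34.2% of all genes) and below for 20 (35.4% of all genes). With the replicate number as a block, 18 members were higher (31.8% of all genes) and 20 lower (33.2% of all genes). The median log2 fold change of the members was 0.00, against -0.06 over all genes.

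Heavy chains of kinesin and the genes of dynein and dynactin are counted separately here, and the difference between them was not tested. Over all genes 31.4% were higher and 32.2% lower. Of 30 tested kinesin heavy chains, 3 were higher and 14 lower, with a median log2 fold change of -0.45. Of 22 tested dynein and dynactin genes, 12 were higher and 5 lower, with a median of 0.50. Both counts depend on how libraries are scaled and on transcript length, and the kinesin count also on the filter. With libraries scaled to their totals, which moved the median of all genes by -0.48 on the log2 scale, the kinesins had 0 higher and 21 lower and the dynein and dynactin genes 10 higher and 9 lower, and over all genes 17.3% were higher and 53.1% lower. After a correction for transcript length, the kinesins had 8 higher and 8 lower and the dynein and dynactin genes 9 higher and 2 lower, where 28.2% of all genes were higher and 27.5% lower. The filter also admits genes through their Input libraries alone, which favours a lower result. With a value of 10 required in all 6 libraries, 24 kinesins were tested, 3 higher and 9 lower. The 22 dynein and dynactin genes then had 13 higher and 5 lower, where 35% of all genes were higher and 31.3% lower.

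**Figure D1:**
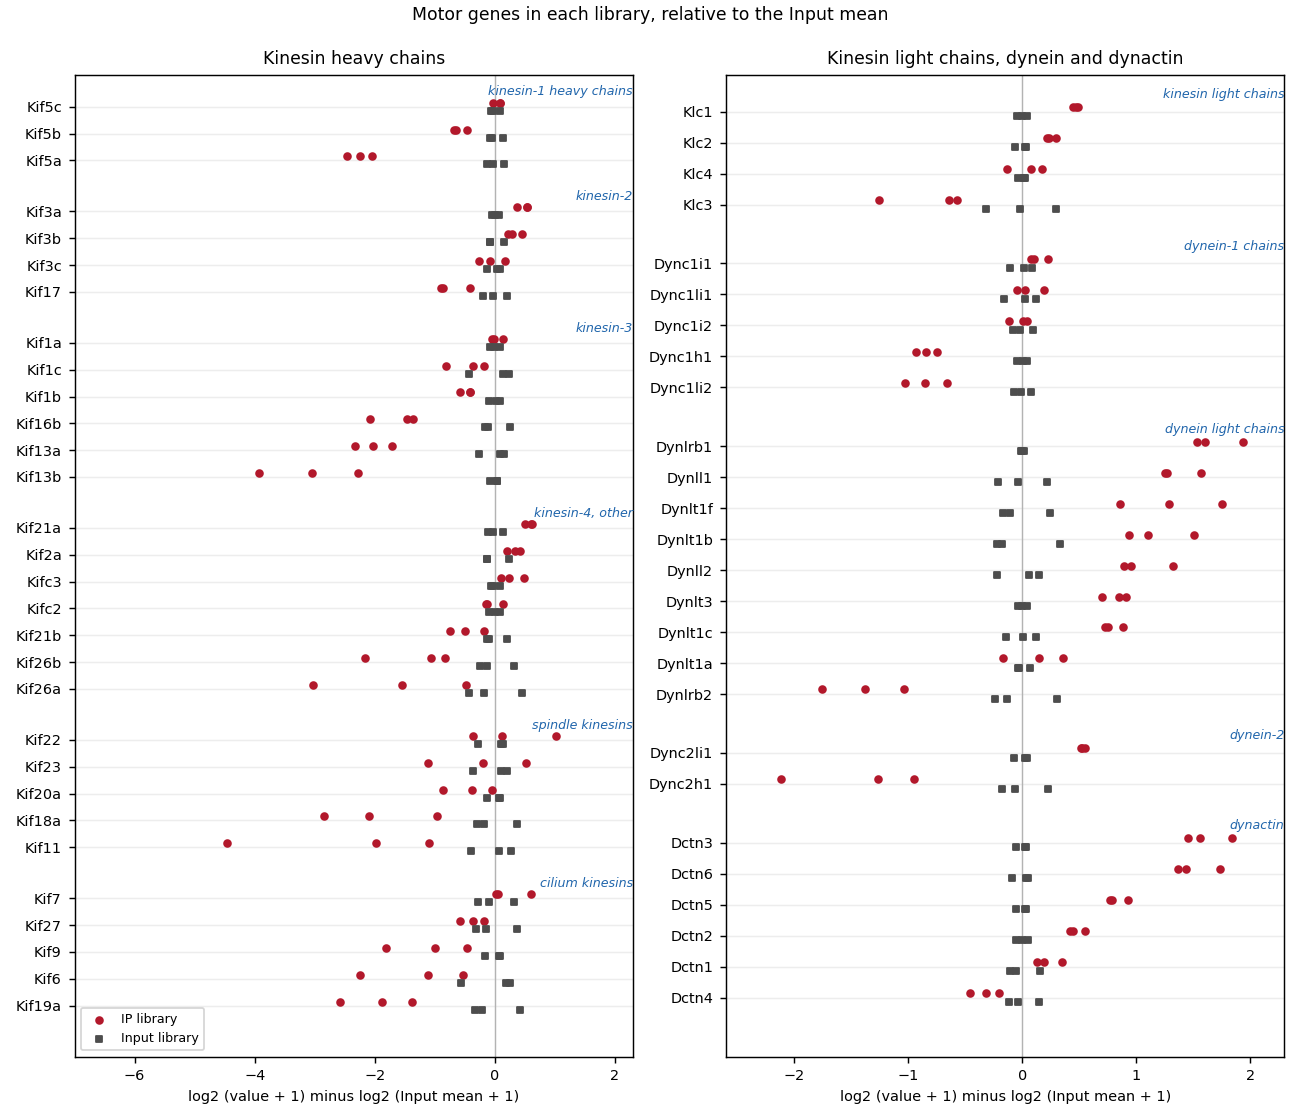
Each row is a tested motor gene and each point a library: the x axis gives log2(value + 1) minus log2(Input mean + 1), with IP libraries as red circles above the Input libraries, grey squares. Genes are grouped by role and ordered by fold change, and the x axes of the panels span different ranges. Kif5a, Kif13a and Kif13b lie far left of their Input libraries, and most dynein light chains lie to the right.

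Kinesin-1 carries vesicles, mitochondria and other cargo down axons, and its heavy chain comes from 3 genes. Kif5a, the neuronal form, had 3248, 4316 and 3749 in the IP libraries against 16267, 17469 and 19791 in the Input libraries. Every IP library was far below every Input library, and the log2 fold change was -2.25 ± 0.11 (limma SE, n = 3 libraries each, limma adjusted p = 2.2e-08). Kif5a, at chr10:127225696-127263348 on the minus strand (mm10, GENCODE M21), was lower and called in each of the 21 alternative analyses that were run, with log2 fold changes of -2.73 to -1.79.

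The other kinesin-1 genes behaved differently. Kif5b, the form made in most cell types, had 2303, 2025 and 1986 in IP against 3005, 3480 and 3073 in Input. It fell by 0.60 (SE 0.10, limma adjusted p = 0.00015), but after the length correction its change of -0.15 was no longer called (adjusted p = 0.21). Kif5c, the other form rich in neurons, had 4643, 4646 and 4275 in IP against 4654, 4306 and 4198 in Input. These groups overlapped, and its log2 fold change of 0.04 was not called (limma adjusted p = 0.66). The sign of Kif5c depends on the scaling: it was -0.44 with libraries scaled to their totals and 0.53 after the length correction, and both were called.

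The make-up of the kinesin-1 pool therefore differed between the fractions. Taken per kilobase of transcript, Kif5a made up 32.8%, 40.4% and 38.5% of kinesin-1 heavy chain RNA in the IP libraries against 68.7%, 69.7% and 73.7% in the Input libraries. Kif5c made up 43%, 39.9% and 40.3% in IP against 18%, 15.8% and 14.4% in Input. Kif5c was thus on a level with Kif5a in IP and well below it in Input, and Kif5b took 21.8 ± 2.3% in IP and 13.2 ± 1.3% in Input (SD, n = 3 each). The log2 ratio of Kif5c to Kif5a averaged 0.27 ± 0.22 in IP and -2.02 ± 0.22 in Input, a difference of 4.89-fold that went the same way in all 3 pools (exact two-sided permutation test, p = 0.1, the smallest that 3 against 3 libraries can give). A ratio within a library does not move with the scaling of that library, and the transcripts compared, 6856 and 6295 bases, are of like length.

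**Figure D2:**
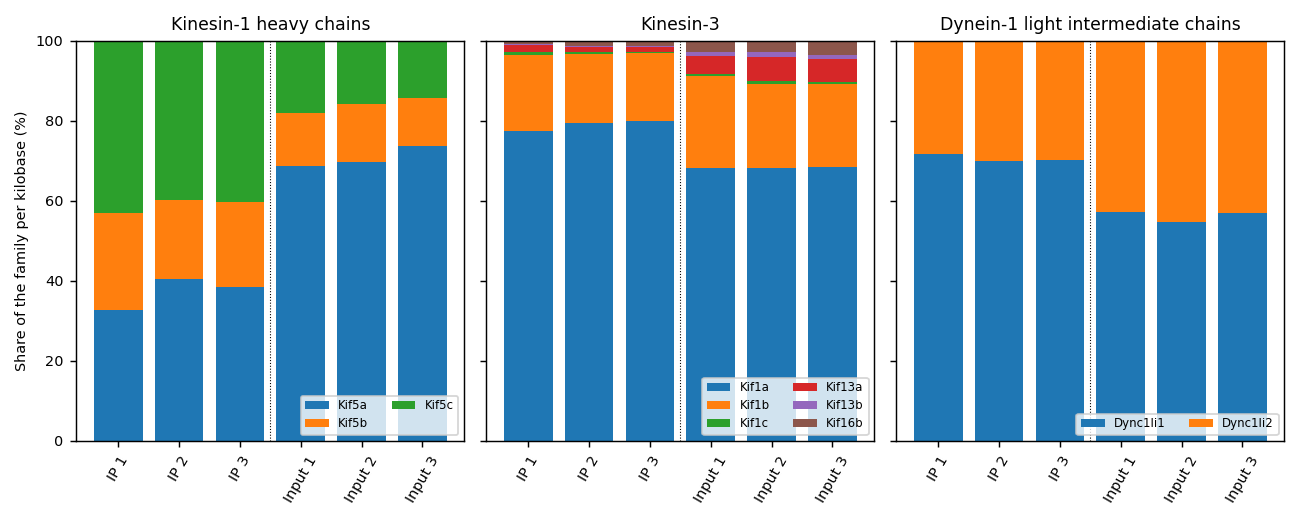
Bars are libraries, with IP on the left and Input on the right of the dotted line, and colours give each gene's share (%) of its family's value per kilobase. The Kif5a share is 32.8% to 40.4% in IP and 68.7% to 73.7% in Input, and the share of Dync1li1 is higher in every IP library than in any Input library.

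Kinesin light chains bind the kinesin-1 tail and pick up cargo. Klc1, by far the most abundant, had 25178, 24673 and 25568 in IP against 18673, 18196 and 17644 in Input. Its groups did not overlap, and it was higher by a log2 fold change of 0.47 ± 0.08 (limma adjusted p = 0.0002), though the change was -0.01 with libraries scaled to their totals. Klc1 made up 92.2 ± 0.29% of light chain RNA per kilobase in IP and 90.2 ± 0.21% in Input (SD, n = 3 each).

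Klc2 had 1518, 1505 and 1591 in IP against 1323, 1318 and 1239 in Input. It was higher by 0.25 ± 0.09 (limma adjusted p = 0.029), a call lost on leaving out IP replicate 3, any Input library or any pool (adjusted p up to 0.24), and the sign turned to -0.23 with libraries scaled to their totals. Klc3, scarce in both fractions, went the other way, with 80.8, 77.1 and 49.9 in IP against 96.6, 119 and 149 in Input. It fell by 0.81 (SE 0.27, limma adjusted p = 0.021). That call was lost without IP replicate 3, Input replicate 2, Input replicate 3, pool 2 or pool 3 (adjusted p up to 0.25), and 28.1% of Klc3 exon bases overlap Ercc2 on the other strand, whose reads may be counted with it since the strand setting is not known. Klc4 was at 0.04 and was not called.

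Kinesin-2 is a heterotrimer of KIF3 motors, or the homodimer KIF17, and serves both axonal transport and the building of cilia. Kif3a, the common subunit, had 3705, 3308 and 3681 in IP against 2664, 2457 and 2543 in Input. It was higher by a log2 fold change of 0.48 ± 0.09 (limma adjusted p = 0.00037), with no overlap between the groups, and the change was 0.00 with libraries scaled to their totals. Kif17, a motor of dendrites that carries NMDA receptor vesicles, had 452, 632 and 458 in IP against 823, 960 and 733 in Input.

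Kif17 fell by 0.71 (SE 0.15, limma adjusted p = 0.0013) and stayed lower and called in all 21 alternatives. The neuronal partner Kif3c had 2420, 3252 and 2746 in IP against 3088, 2636 and 2964 in Input. Its groups overlapped and its change of -0.05 was not called, but it turned to 0.43 and was called after the length correction (adjusted p = 0.0018). For Kif3c, 40.7% of exon bases overlap another gene on the opposite strand. Kif3b, the other partner of Kif3a, had a log2 fold change of 0.32 (limma adjusted p = 0.06).

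Kinesin-3 motors carry synaptic vesicle precursors, dense-core vesicles and endosomes. Kif1a, the main axonal carrier of dense-core vesicles, had 5114, 5798 and 5243 in IP against 5275, 5020 and 5605 in Input. These values overlapped (log2 fold change 0.02 ± 0.09, limma adjusted p = 0.83). The sign of Kif1a moved with the processing, to -0.46 with libraries scaled to their totals and to 0.55 after the length correction. Kif1b, which carries mitochondria and synaptic vesicle precursors, had 1575, 1570 and 1394 in IP against 2217, 1947 and 2107 in Input.

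Kif1b fell by 0.47 (SE 0.10, limma adjusted p = 0.00097), and its change of 0.13 after the length correction was not called. The endosomal members fell much further. Kif13a, which moves recycling endosomes, had 107, 85.2 and 69.5 in IP against 292, 373 and 393 in Input. Kif13b had 9.10, 16.1 and 4.48 in IP against 78.2, 84.4 and 84.5 in Input.

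No IP library of either gene came near an Input library. Kif13a was 4.04-fold lower in IP (log2 fold change -2.01 ± 0.21, limma adjusted p = 3.6e-06) and Kif13b was 8.48-fold lower (-3.08 ± 0.46, limma adjusted p = 8.4e-05), the largest fall of any tested motor gene in this fit. After the length correction that place went to Dynlrb2 (-2.91, against -2.53 for Kif13b), and without IP replicate 1 to Kif11 (-3.20, against -3.10). Kif16b, a carrier of early endosomes, was 3.08-fold lower (-1.62 ± 0.25, limma adjusted p = 0.00012), and Kif1c was at -0.43 and not called. Kif13a, Kif13b and Kif16b stayed lower and called in every alternative in which they were tested. Kif13b reached 10 in all its Input libraries but not in all IP libraries, and such a filter favours a lower result. With a value of 10 required in all 6 libraries, Kif13b was not tested. Of the 5 kinesin-3 genes tested then, 3 were lower, where 31.3% of all genes were lower. Per kilobase, Kif1a made up 78.9 ± 1.3% of kinesin-3 RNA in IP, against 68.3 ± 0.22% in Input, while Kif13a held 1.53 ± 0.35% in IP and 5.43 ± 0.81% in Input (SD, n = 3 each). Whether the falls of Kif13a, Kif13b and Kif16b come from glial RNA in Input was not tested.

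Of the other neuronal kinesins, 2 of 7 tested were higher and 2 lower (28.6% each). These shares were near those of all genes, 31.4% higher and 32.2% lower. Kif21a, a kinesin-4 motor that slows microtubule growth, had 2198, 2223 and 2056 in IP against 1589, 1411 and 1341 in Input. Its rise was the largest among the kinesin heavy chains, at a log2 fold change of 0.58 ± 0.10 (limma adjusted p = 0.00018). The change was 0.10 and not called with libraries scaled to their totals, and 1.04 after the length correction.

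Its paralog Kif21b had -0.47 (limma adjusted p = 0.062), so that the log2 ratio of Kif21b to Kif21a averaged -3.91 ± 0.33 in IP and -2.86 ± 0.08 in Input (SD, n = 3 each). Kifc2, a minus-end kinesin abundant in brain, had 8985, 9099 and 10966 in IP against 9999.5, 10622 and 9315 in Input. Its libraries overlapped and it was not called (log2 fold change -0.05 ± 0.10). Kif2a, which takes microtubules apart at their ends, had a change of 0.33 that was not called (limma adjusted p = 0.072).

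Kifc3, another minus-end kinesin, had 1525, 1396 and 1827 in IP against 1275, 1245 and 1376 in Input. Its rise of 0.28 ± 0.11 was at the edge of the threshold (limma adjusted p = 0.045). The call was lost without IP replicate 1, IP replicate 3, any Input library or any pool (adjusted p up to 0.21), and the sign turned to -0.21 with libraries scaled to their totals. Opposite-strand overlap with Dimt1 touches 19.2% of Kif2a exon bases. Kif26a and Kif26b, kinesin-11 proteins that do not act as motors, were scarce: Kif26a had 4.38, 14 and 30.4 in IP against 59.5, 31.7 and 37.6 in Input.

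Kif26b had 13.4, 30.1 and 35.4 in IP against 58.3, 53.6 and 79.5 in Input. Both fell, Kif26a by 1.64 (SE 0.60, limma adjusted p = 0.031) and Kif26b by 1.33 (SE 0.41, limma adjusted p = 0.013), and after the length correction neither was called. Kif26a was also not called without IP replicate 1, Input replicate 1, Input replicate 3, pool 1 or pool 2 (adjusted p up to 0.28), and Kif26b without Input replicate 3 or pool 1 (adjusted p up to 0.062). Kif12 was listed at 0 in all 6 libraries.

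Spindle kinesins serve cell division, and most were near or below the limit of testing. Of them 5 were tested, 2 lower and 0 higher, where 32.2% of all genes were lower and 31.4% higher. Kif11 and Kif18a reached the limit in all their Input libraries, Kif11 in no IP library, and such a filter favours a lower result. With a value of 10 required in all 6 libraries, 2 spindle kinesins were tested and 0 were lower, where 31.3% of all genes were lower. Kif11, the motor that pushes spindle poles apart, had 9.34, 4.56 and 0 in IP against 25.4, 22.0 and 15.6 in Input. Kif18a, which sets chromosome alignment, had 2.32, 11.2 and 4.58 in IP against 18.4, 20.1 and 29.8 in Input. Neither gene overlapped between the groups.

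Kif11 fell by 2.48 (SE 0.88, limma adjusted p = 0.025) and Kif18a by 1.93 (SE 0.67, limma adjusted p = 0.022). The call of Kif11 was lost without Input replicate 1, Input replicate 2, pool 2 or pool 3 (adjusted p up to 0.094) or with the length correction (adjusted p = 0.059, and 0.039 with the replicate block added), and that of Kif18a without any Input library, pool 1 or pool 3 (adjusted p up to 0.13). The more abundant Kif20a had 151, 85.3 and 119 in IP against 165, 163 and 142 in Input, and Kif22 had 121, 46.1 and 65.0 in IP against 48.7, 64.3 and 65.7 in Input.

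Kif20a, Kif22 and Kif23 were not called, with log2 fold changes of -0.43, 0.27 and -0.24, and 29.3% of Kif20a exon bases overlap Cdc23 on the other strand. Kif2c, which takes apart microtubules at the kinetochore and was too scarce to test, was listed at 0 in all IP libraries against 19.2, 14.6 and 6.89 in Input. The remaining spindle members Kif2b, Kif4, Kif14, Kif15, Kif18b, Kif20b, Kifc1 and Kifc5b stayed below the limit, with Kif2b at 0 throughout. Of 7 tested markers of proliferating cells, 4 were lower in IP (7 with libraries scaled to their totals). The summed value of the marker list was 84.2 to 121 in IP and 252 to 279 in Input. The 4 called (Mki67, Ccnb1, Ccnb2 and Aurkb) reached 10 in all Input libraries but not in all IP libraries. For them, too, the filter favours a lower result. The part of dividing cells in the spindle values was not tested.

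Of 5 tested cilium kinesins, 3 were lower and 0 higher, where 32.2% of all genes were lower and 31.4% higher. Kif19a passed the filter through its Input libraries alone. With a value of 10 required in all 6 libraries, 4 were tested and 2 were lower, where 31.3% of all genes were lower. Kif24 was too scarce to test. Kif9, found in motile cilia, had 31.0, 80.4 and 55.4 in IP against 117, 118 and 98.7 in Input. Kif27, a relative of the Hedgehog regulator Kif7, had 62.2, 82.0 and 72.4 in IP against 83.7, 74.7 and 121 in Input. The first of these did not overlap between groups, and the other did.

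Kif9 fell by 1.08 (SE 0.33, limma adjusted p = 0.012), a call lost without pool 1 (adjusted p = 0.092), while Kif27 at -0.34 and Kif7 at 0.24 were not called. Kif6 had 48.0, 13.8 and 31.5 in IP against 46.7, 82.5 and 79.3 in Input, and Kif19a, which trims the tips of motile cilia, had 6.63, 2.33 and 4.38 in IP against 16.1, 14.9 and 25.7 in Input. Kif6 fell by 1.25 (limma adjusted p = 0.026), although 1 IP library lay within the Input range, and lost its call without IP replicate 2, Input replicate 2, Input replicate 3, pool 2 or pool 3 (adjusted p up to 0.25) and after the length correction (adjusted p = 0.065). Kif19a fell by 1.91 (limma adjusted p = 0.025) and lost its call without any Input library, pool 2 or pool 3 (adjusted p up to 0.13) and with the length correction and replicate block together (adjusted p = 0.054). The summed ependymal markers, whose cells line the ventricle beside the septum and bear motile cilia, were 580 to 642 in IP and 883 to 1208 in Input, with 3 of 6 tested lower, and their part was not tested.

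Of the heavy, intermediate and light intermediate chains of cytoplasmic dynein-1, 2 of 5 were lower and 0 higher. Over all genes 32.2% were lower and 31.4% higher. Dync1h1, the motor heavy chain, had 326, 371 and 346 in IP against 641, 603 and 625 in Input. Dync1li2, a light intermediate chain that binds cargo adaptors, had 1103, 1425 and 1251 in IP against 2376, 2149 and 2245 in Input. Both were lower in every IP library, Dync1h1 by 0.84 (SE 0.12, limma adjusted p = 6.1e-05) and Dync1li2 by 0.85 (SE 0.11, limma adjusted p = 1.9e-05).

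The fall of Dync1h1, whose longest transcript has 14342 bases, was reduced to -0.16 after the length correction and was no longer called (adjusted p = 0.23), while that of Dync1li2 held at -0.50 (adjusted p = 0.00053). Dync1li1, the paralog of Dync1li2, had 1581, 1864 and 1659 in IP against 1781, 1462 and 1664 in Input. The intermediate chain Dync1i1 had 4335, 4245 and 4695 in IP against 4274, 3735 and 4070 in Input. Both overlapped between the groups.

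Dync1li1 (0.06), Dync1i1 (0.14) and Dync1i2 (-0.02) were not called, but all 3 were lower and called with libraries scaled to their totals, at -0.42, -0.35 and -0.50. Per kilobase, Dync1li1 held 71.8%, 69.9% and 70.2% of light intermediate chain RNA in IP against 57.1%, 54.7% and 56.9% in Input. The log2 ratio of Dync1li1 to Dync1li2 was 0.91 higher in IP (1.87-fold), in the same direction in all 3 pools. Their transcripts differ in length, 2601 against 4627 bases.

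The light chains of dynein, small dimers that sit on the intermediate chain, were mostly higher: 7 of 9 tested were higher, 1 was lower and 1 was not called, with a median log2 fold change of 1.06, where 31.4% of all genes were higher. After the length correction 5 were higher and 1 lower, with a median of 0.49, where 28.2% of all genes were higher. Dynlrb1, a roadblock light chain, had 20254, 15326 and 16074 in IP against 5352, 5248 and 5273 in Input. Dynll1, the LC8 light chain shared with many other complexes, had 26591, 21453 and 21653 in IP against 10446, 8766 and 7734 in Input. In both, the lowest IP library was over 2 times the highest Input library.

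Dynlrb1 was 3.23-fold higher (log2 fold change 1.69 ± 0.10, limma adjusted p = 5.6e-08), the largest rise of any tested motor gene in this fit, and Dynll1 was 2.59-fold higher (1.37 ± 0.12, limma adjusted p = 6.8e-07). Dynll2 was higher by 1.06 and Dynlt3, a Tctex-type light chain, by 0.82. These 4 genes stayed higher and called in all 21 alternatives, at the smallest by 0.49 for Dynlrb1, 0.89 for Dynll1, 0.58 for Dynll2 and 0.34 for Dynlt3. The order among them depends on length: after the length correction, Dynll1 stood at 1.03 and Dynlrb1 at 0.49.

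Dynlrb2, the other roadblock chain, which is known from ciliated tissue and testis, went against its family. It had 41.5, 69.1 and 54.3 in IP against 121, 130 and 177 in Input, and no IP library reached an Input library. It was 2.59-fold lower (log2 fold change -1.37 ± 0.27, limma adjusted p = 0.00073), and it fell in all 21 alternatives, by 2.91 after the length correction since its transcript, of 527 bases, is the shortest of the tested members. Per kilobase it held 0.492 ± 0.18% of roadblock RNA in IP and 3.88 ± 0.8% in Input (SD, n = 3 each).

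The Dynlt1 genes are near copies of each other, and their split of reads is uncertain. Of the 50-base windows in their transcripts, 59.4% in Dynlt1a, 83.2% in Dynlt1b, 93.7% in Dynlt1c and 93.1% in Dynlt1f occur in another gene as well. Dynlt1b, Dynlt1c and Dynlt1f were higher by 1.20, 0.79 and 1.31, and Dynlt1a at 0.11 was not called. After the length correction Dynlt1b (-0.01) and Dynlt1f (0.10) were not called, and Dynlt1c was not called with libraries scaled on pan-neuronal genes.

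Cytoplasmic dynein-2 drives return traffic inside cilia, and its 2 tested chains moved apart. Dync2h1, the heavy chain, had 81.1, 44.3 and 101 in IP against 173, 187 and 229 in Input. Dync2li1, its light intermediate chain, had 790, 794 and 808 in IP against 525, 564 and 570 in Input. Dync2h1 fell by 1.43 (SE 0.29, limma adjusted p = 0.00083) and Dync2li1 was higher by 0.53 (SE 0.11, limma adjusted p = 0.0009), and after the length correction neither was called (-0.76 and -0.20). With the replicate block added to that correction, Dync2h1 was called again (-0.76, adjusted p = 0.023).

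Dynactin links dynein to cargo and to the microtubule. Of its 6 tested numbered subunits, 4 were higher, 1 was lower and 1 was not called, with a median log2 fold change of 0.65. Over all genes 31.4% were higher and 32.2% lower, and the median of all tested genes under 2000 bases was 0.72. After the length correction 4 subunits were higher and 0 lower, with a median of 0.38, where 28.2% of all genes were higher. Dctn3, the small p24 subunit of the shoulder, had 14614, 11164 and 12031 in IP against 4144, 4164 and 3939 in Input. Dctn6, the p27 subunit of the pointed end, had 8354, 6442 and 6786 in IP against 2566, 2585 and 2356 in Input.

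Dctn3 was 3.07-fold higher (log2 fold change 1.62 ± 0.10, limma adjusted p = 6.4e-08) and Dctn6 2.86-fold higher (1.52 ± 0.10, limma adjusted p = 1.1e-07). Dctn5, the partner of Dctn6 at the pointed end, was 1.78-fold higher (0.83). All 3 stayed higher and called in all 21 alternatives, with log2 fold changes of 0.60, 0.72 and 0.22 after the length correction. Dctn2, the dynamitin subunit, had 9169, 8387 and 8511 in IP against 6496, 6276 and 6038 in Input.

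Dctn2 was higher by 0.47 (SE 0.08, limma adjusted p = 0.00024), but its change was -0.01 with libraries scaled to their totals and 0.00 after the length correction, neither called. Dctn1, the large p150 subunit that grips the microtubule, had 7109, 7408 and 8290 in IP against 6032, 6262 and 7230 in Input. It was higher in IP in all 3 pools, but 1 IP library lay below the highest Input library, and it missed the threshold (0.23 ± 0.10, limma adjusted p = 0.054). With the replicate number as a block it was called (0.23, limma adjusted p = 0.021), and with libraries scaled to their totals it was called lower (-0.26). Dctn4, the p62 subunit, had 580, 690 and 641 in IP against 881, 778 and 734 in Input.

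Dctn4 fell by 0.32 (SE 0.12, limma adjusted p = 0.031). The call was lost after the length correction (-0.10) and without IP replicate 1, IP replicate 3, Input replicate 1, Input replicate 2, pool 1 or pool 3 (adjusted p up to 0.24).

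Motors are joined to cargo by adaptors and regulators, of which 44 were listed and all were tested: 12 were higher and 16 lower in IP, with a median of -0.04, and over all genes 31.4% were higher and 32.2% lower. With libraries scaled to their totals the counts were 4 higher and 30 lower, where 17.3% of all genes were higher and 53.1% lower. After the length correction 15 adaptors were higher and 11 lower, where 28.2% of all genes were higher and 27.5% lower. Nde1, a partner of LIS1 and dynein that is also known from dividing progenitors, had 24.3, 117 and 87.0 in IP against 616, 724 and 632 in Input, the largest fall of the list. Its log2 fold change was -3.36 ± 0.42 (limma adjusted p = 1.6e-05), whereas its paralog Ndel1 had 4696, 4934 and 4897 in IP against 4255, 4224 and 4115 in Input (0.21, limma adjusted p = 0.035, and -0.28 with libraries scaled to their totals).

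Mapk8ip2, a JNK scaffold that binds kinesin light chains, had 848, 865 and 1215 in IP against 3086, 3444 and 3160 in Input and fell by 1.74 (SE 0.13, limma adjusted p = 2.2e-07). Bicd2, the dynein activator, had 346, 349 and 400 in IP against 916, 846 and 1021 in Input and fell by 1.34 (SE 0.12, limma adjusted p = 1.2e-06). Rilp, which ties dynein to RAB7 on late endosomes, had 219, 132 and 205 in IP against 32.0, 46.3 and 40.9 in Input. It was higher by 2.17 (SE 0.28, limma adjusted p = 2e-05), the largest rise among the adaptors.

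Rilp, Nde1, Mapk8ip2 and Bicd2 stayed called after the length correction. Lin7b had 4569, 3466 and 3866 in IP against 1560, 1531 and 1377 in Input and was higher by 1.41 (limma adjusted p = 2.9e-07), but only by 0.15, not called, after the length correction, and 24.4% of its exon bases overlap another gene on the opposite strand. Capzb, a capping protein subunit of dynactin, had 10957, 11615 and 5473 in IP against 5331, 6838 and 3647 in Input. It was low in pool 3 in both fractions, and its rise of 0.80 (limma adjusted p = 0.017) reached an adjusted p of up to 0.12 when single libraries or pools were left out and of 9.6e-07 with the replicate number as a block. Without the block, it was not called with library totals (0.31, limma adjusted p = 0.32) or after the length correction (0.28, limma adjusted p = 0.39). Nor was it called with the upper quartile (0.57) or pan-neuronal genes (0.32).

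Fold change and transcript length went together across the motors. Over the 56 tested members Spearman's rho between the log2 fold change and the length of the longest annotated transcript was -0.63, and it was -0.448 over all tested genes with a length. This is a correlation across genes, which share the same 6 libraries and are not independent replicates. Of the 10 members under 2000 bases, 8 were higher and 2 lower, with a median of 1.02, while of all tested genes under 2000 bases 60.5% were higher and 12.1% lower, with a median of 0.72. Of the 19 members over 5000 bases, 1 was higher and 10 lower, with a median of -0.47, against 10.7% higher and 52.5% lower, with a median of -0.54, for all tested genes of that length.

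**Figure D3:**
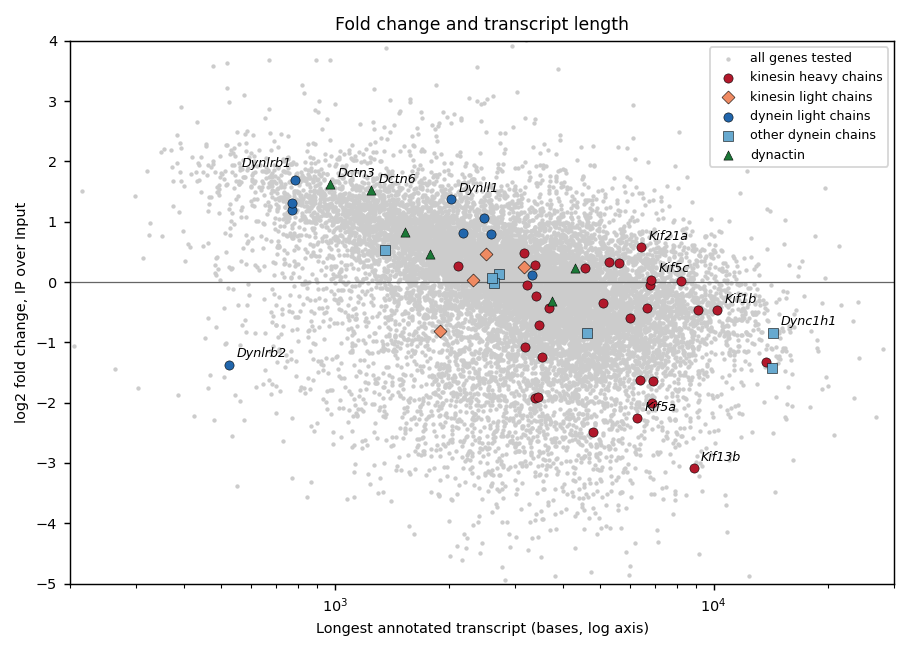
The x axis is the longest annotated transcript (bases, log axis) and the y axis the log2 fold change of IP over Input, with all tested genes in grey and motor genes in colour by kind. Short light chains and dynactin subunits lie high and most long heavy chains lie low; Dynlrb2 is short and low, and Kif5c and Kif21a are long without a fall.

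After the correction rho over the members was -0.18. What produces the trend with length was not tested. Kif5a, Kif13a, Kif13b, Kif16b, Kif17, Dync1li2 and Dynlrb2 were the 7 of the 20 lower members that kept their call in every alternative in which they were tested, and Dynlrb1, Dynll1, Dynll2, Dynlt3, Dctn3, Dctn5 and Dctn6 were the 7 of the 17 higher members that did so. Under the length correction 5 kinesins that had not been called were called higher: Kif5c (0.53), Kif1a (0.55), Kif3b (0.75), Kif3c (0.43) and Kif2a (0.73).

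**Figure D4:**
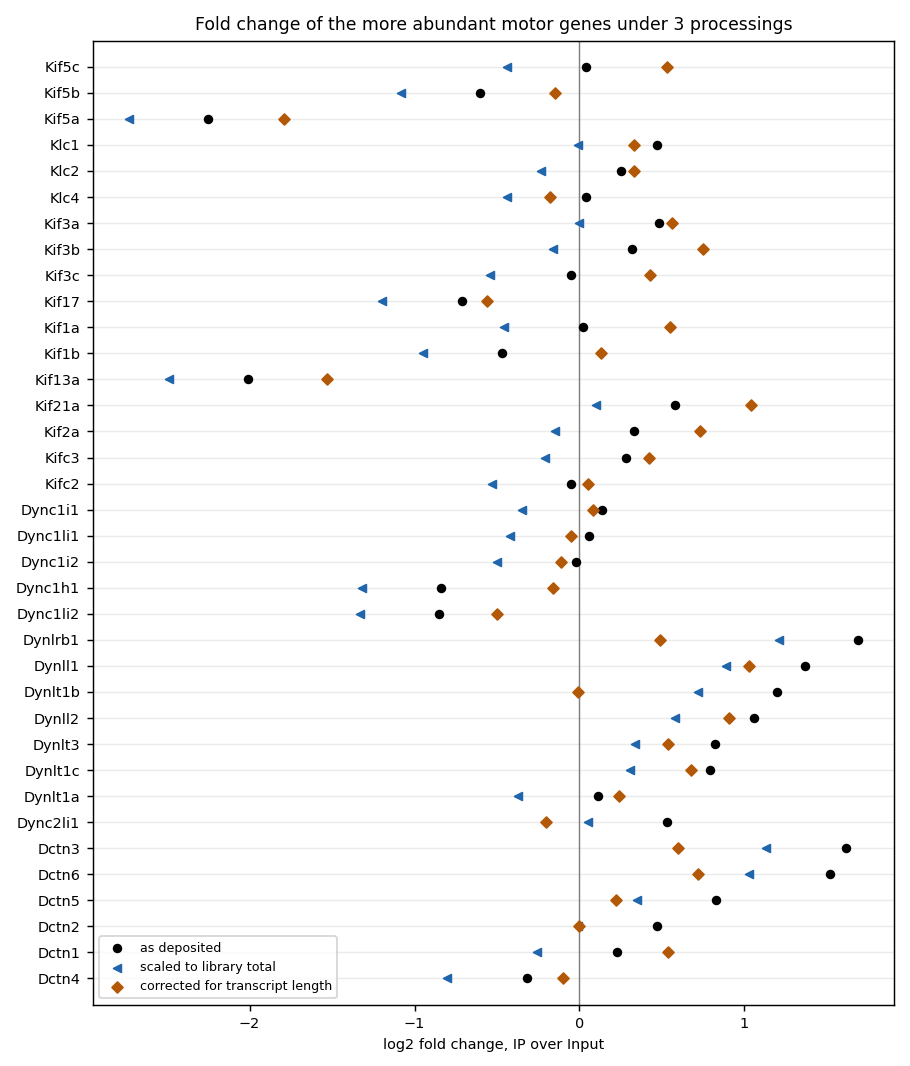
Rows are the motor genes whose mean over both groups was at least 200, and points give the log2 fold change of IP over Input as deposited (black), with libraries scaled to their totals (blue) and corrected for transcript length (orange). Kif5a and Kif13a stay left of 0 and Dynll1, Dctn3 and Dctn6 right of 0 under all 3, whereas Kif5c, Kif1a and Klc1 change side or reach it.

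Ratios between paralogs, which are free of the scaling, were compared in 14 pairs. Of these, 10 had no overlap between the IP and Input libraries (exact two-sided permutation test, p = 0.1 each, the smallest possible, Benjamini-Hochberg adjusted p = 0.14), so that no pair could pass the threshold in this design. The largest differences were those of Kif5c to Kif5a (2.29 higher in IP on the log2 scale), Kif5a to Kif5b (-1.65), Kif13a to Kif13b (1.07) and Kif21b to Kif21a (-1.05). That of Kif13a to Kif13b rests on low Kif13b values in IP (9.10, 16.1 and 4.48), where the 1 added before the logarithm weighs more. It averaged 3.14 ± 0.72 in IP and 2.07 ± 0.17 in Input (SD, n = 3 each). The ratio of Dync1i1 to Dync1i2 averaged 2.34 ± 0.16 in IP and 2.19 ± 0.15 in Input, and that of Kif3a to Kif3b averaged 3.17 ± 0.21 in IP and 3.02 ± 0.08 in Input (SD, n = 3 each). The libraries of these pairs overlapped.

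Of the 67 members, 51 had a promoter in the RefSeq table for GRCm38.p6, each covering 250 bases before to 50 bases after the start. They are shown for a light chain and a dynactin subunit that were higher, Dynlrb1 and Dctn3, and for a heavy chain of each kind that was lower, Dync1h1 and Kif13a, to set genes that moved in opposite directions beside each other. Capitals mark GC boxes (GGGCGG) and CCAAT boxes (CCAAT) on either strand, in the gene's own 5′ to 3′ direction.
Dynlrb1: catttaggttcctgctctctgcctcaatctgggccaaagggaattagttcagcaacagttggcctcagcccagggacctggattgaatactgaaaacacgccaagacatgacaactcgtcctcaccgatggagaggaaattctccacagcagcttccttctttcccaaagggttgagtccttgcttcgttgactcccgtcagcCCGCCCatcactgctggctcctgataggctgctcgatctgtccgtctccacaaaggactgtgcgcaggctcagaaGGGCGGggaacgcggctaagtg
Dctn3: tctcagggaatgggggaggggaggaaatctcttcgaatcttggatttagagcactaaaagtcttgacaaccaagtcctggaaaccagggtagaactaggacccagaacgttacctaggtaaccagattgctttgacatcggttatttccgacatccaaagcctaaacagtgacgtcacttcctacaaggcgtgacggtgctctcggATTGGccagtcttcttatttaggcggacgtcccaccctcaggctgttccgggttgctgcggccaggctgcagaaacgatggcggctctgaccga
Dync1h1: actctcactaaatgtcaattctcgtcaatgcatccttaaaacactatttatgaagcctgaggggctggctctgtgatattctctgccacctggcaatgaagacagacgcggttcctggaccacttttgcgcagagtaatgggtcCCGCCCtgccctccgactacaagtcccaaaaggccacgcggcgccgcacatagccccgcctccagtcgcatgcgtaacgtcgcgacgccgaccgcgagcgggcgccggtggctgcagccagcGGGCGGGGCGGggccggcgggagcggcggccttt
Kif13a: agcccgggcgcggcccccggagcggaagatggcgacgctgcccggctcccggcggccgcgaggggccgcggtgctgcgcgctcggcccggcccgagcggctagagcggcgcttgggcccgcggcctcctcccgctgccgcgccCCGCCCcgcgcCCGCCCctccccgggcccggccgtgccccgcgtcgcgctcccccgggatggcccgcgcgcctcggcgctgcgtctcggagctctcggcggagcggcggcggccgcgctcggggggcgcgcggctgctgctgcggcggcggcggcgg

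The windows are chr2:155236283-155236582 (plus strand) for Dynlrb1, chr4:41723114-41723413 (minus strand) for Dctn3, chr12:110601145-110601444 (plus strand) for Dync1h1 and chr13:46929669-46929968 (minus strand) for Kif13a. Dynlrb1 held 2 GC boxes, Kif13a 2 and Dync1h1 3, of which a pair overlaps, while Dctn3 held a CCAAT box and also a cyclic AMP response element (TGACGTCA), which is not in capitals. The motor set holds a single promoter per gene, the start nearest its 5′ end, while the whole table keeps every start listed. The shares that follow thus come from unlike sets, and their difference was not tested. GC boxes stood in 34 of the 51 motor promoters (66.7%) and in 35.7% of all 32851 promoters of the table. CCAAT boxes stood in 25 (49.0%) and in 37.4% of all. TATA boxes (TATAAA) stood in 4 motor promoters (7.8%) and in 13.6% of all, and TGACGTCA in 5 (9.8%) and in 1.8% of all. GC boxes were thus present in genes that were higher and in genes that were lower, and a match of letters is a description and not a site of binding.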

How the data were processed

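Viral-TRAP was run on 3 pools of lateral septum, each giving 1 IP and 1 Input library. The deposited signal, 1 value per gene in each library, is a read count that the authors divided by DESeq2 size factors. STAR, DESeq2 and mm10 are named in the submitters' processing notes without versions, and the counting program, annotation and strand setting were not given in the sources used here. Of 24972 entries, 26 named by dates (0.188% to 0.32% of a library's total) were left out.

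Between 15.9% and 31.2% of low values were whole multiples of the commonest step (tolerance 0.02), so no count test was run. Genes reaching 10 in 3 or more libraries were tested on log2(value + 1), a scale that understates changes of low genes, with limma 3.58.1 (R 4.3.3), a mean-variance trend and Benjamini-Hochberg adjustment over 14859 genes. Fold changes are IP over Input on this scale, enriched and depleted meaning also over 2-fold. The script was tested on simulated data. By the commonest step, libraries held roughly 9320000 to 11010000 reads, and scarce genes are the least precise.

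The methods state that each pool was split, so numbers pair the libraries: deviations from group means correlated at 0.109, 0.095 and 0.0992 within numbers and at -0.0826 to -0.0133 between them. The main fit has no block. The length correction subtracts from each library a lowess fit (span 0.667) of its deviation from the gene means on log2 transcript length. Alternatives were 3 scalings, the length correction, the block, both together, 3 filters, 2 pseudocounts, no trend, and leaving out each library or pool. Lengths and coordinates were taken from GENCODE M21 (mm10), where 24464 names were found directly and a further 45 through synonyms. Ratios used exact permutation tests (scipy 1.17.1).

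By rule, the text gives per-library values for the 2 members of each of 11 role groups that were most abundant, the 2 with the largest called change and called members against their group's median, and for the 3 adaptors most changed in each direction. Ndel1, named as a paralog, was chosen after its values were seen. Members and lists were chosen with earlier results of these data known.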

Additional observations from a re-analysis of the deposited data

How the results depend on the processing

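Most counts moved with the scaling. Against 17 motor genes higher and 20 lower, scaling to library totals gave 10 and 33, with 3 enriched, and scaling on pan-neuronal genes gave 9 and 31, with 3 enriched. For adaptors these scalings gave 4 higher and 30 lower, and 3 higher and 29 lower, and upper-quartile scaling gave 7 and 25. Over all 14859 genes, 4671 higher and 4787 lower became 2577 and 7886 with library totals and 2464 and 7752 with pan-neuronal genes. These were 17.3% and 53.1% with library totals and 16.6% and 52.2% with pan-neuronal genes. Of all genes, 671 and 688 were enriched under these scalings. Upper-quartile scaling gave 24.4% higher and 42.1% lower over all genes. The length correction left 11 of 56 motor genes lower (27.5% of all genes), or 12 with the replicate block (28.6% of all genes). In both fits 2 motor genes were enriched and 8 depleted. With the length correction alone, 909 of all 14728 genes were enriched and 2196 depleted. A value of 10 in all 6 libraries left 8 of 50 motor genes depleted, and 1801 of all 13152 genes. Leaving out single libraries or pools gave 8 to 13 depleted motor genes, and 2208 to 2740 of all 14859 genes.

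Among motor genes called in at least 1 of the fits compared, the sign turned with library totals for Dctn1 (-0.26), Dctn2 (-0.01), Dync1i1 (-0.35), Dync1li1 (-0.42), Kif1a (-0.46), Kif3a (0.00), Kif5c (-0.44), Kifc3 (-0.21), Klc1 (-0.01), Klc2 (-0.23) and Klc4 (-0.44). With pan-neuronal genes it turned for Dctn2 (-0.01), Dync1i1 (-0.34), Dync1li1 (-0.42), Kif1a (-0.45), Kif5c (-0.43), Kifc3 (-0.20), Klc1 (-0.01), Klc2 (-0.23) and Klc4 (-0.44). With the length correction, also with the replicate block, it turned for Dctn2 (0.00), Dync2li1 (-0.20), Dynlt1b (-0.01), Kif1b (0.13) and Kif3c (0.43). A further 5, 6 and 7 motor genes changed sign under these 3 alternatives without a call in either fit. For Ndel1 it turned to -0.28 with library totals, -0.27 with pan-neuronal genes and -0.02 with the upper quartile. Beyond the construction of each scaling, the cause was not tested. With the replicate block alone 18 motor genes were higher (31.8% of all genes) and 20 lower (33.2%), and Dctn1 (0.23) was the only motor gene whose call changed. Without a mean trend in the variance, Dctn4, Kif26a, Kif6, Kifc3 and Klc2 lost their calls, and Klc2 and Kifc3 also did with the upper quartile. Scarce genes are limited by depth: the 11 untested members had at most 2 libraries at 10 or more.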
